A study of Mus musculus with 8 samples.

Results

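Expression of genes that repair or bypass bulky DNA damage was compared between mouse hair follicle bulge cells labelled G9a cKO and G9a WT. The set holds 36 genes chosen by symbol, for nucleotide excision repair, translesion synthesis, mismatch repair and direct reversal of base damage. Of these, 33 had at least 1 probe set carrying their symbol alone and were analysed, as 70 probe sets out of 45141 on the array and as 33 of the 17097 genes tested, without a filter on low values. Ercc6, Gtf2h1 and Gtf2h2 were not analysed here. All 8 arrays came from pre-neoplastic epidermis of 15-week-old mice whose back skin was painted weekly for 6 weeks, from 8 weeks of age, with the mutagen DMBA (200 µl at 0.25 mg/ml in acetone) and the tumour promoter TPA (200 µl at 0.02 mg/ml), so that both genotypes carried the same treatment; untreated skin was not analysed here. The 4 cKO animals carry a conditional knockout of G9a (gene symbol Ehmt2), a histone H3 lysine methyltransferase, and the 4 WT animals do not; the sources used here do not give the Cre driver, the deleted exons or how the bulge cells were isolated. The study's title concerns genomic instability after loss of G9a in skin tumours, and the arrays compare the genotypes in treated skin labelled pre-neoplastic.

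DMBA is oxidised in skin cells to diol epoxides that bind to purines and leave bulky adducts. Nucleotide excision repair removes such adducts: XPC or a stalled RNA polymerase finds the distorted helix, the TFIIH complex opens it, XPA checks the damaged strand, a nuclease on each side cuts out the oligonucleotide, and the gap is filled and ligated. Adducts that are still present at replication can be passed by translesion polymerases, which RAD18 calls in by ubiquitylating the sliding clamp PCNA, at the price of errors. Mismatch repair corrects wrongly paired bases behind the fork, and MGMT takes alkyl groups directly off guanine.

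Values are log2 expression after RMA, a method that corrects background, equalises the arrays and summarises each probe set; they ran from 3.09 to 13.1, with array medians from 5.87 to 5.95. One of the Ehmt2 probe sets read 6.44, 5.54, 5.80 and 5.64 in cKO replicates 1 to 4 and 9.29, 8.89, 8.93 and 9.15 in WT replicates 1 to 4 (exact two-sided permutation p = 0.0286, the smallest that 4 against 4 arrays allow). The other probe set of the gene read 8.41 in both genotypes; which of them lies in the deleted part is not known here. Of the 13 bulge markers, all were measured, at 8.43 to 12.6, with 9 below 0 and 4 above 0 in cKO minus WT; Fst fell by 0.44 (limma adjusted p = 0.0154), and Nfatc1 did not overlap between the groups at -0.35 (limma adjusted p = 0.0566), nor did Krt15 at 0.098 (limma adjusted p = 0.202). The 7 measured leukocyte genes read 3.53 to 5.46 and none passed; the lowest p was that of Cd68 (-0.24, limma adjusted p = 0.165), and Ptprc read 3.60 in cKO and 3.61 in WT. Of 6 measured fibroblast genes, Col1a1 fell by 0.91 (limma adjusted p = 0.00100). The other 5 lay from -0.041 to 0.11, with 3 of them above 0. Of 7 measured genes of terminal differentiation, 4 lay above 0 and 3 below. Sbsn rose by 0.27 (limma adjusted p = 0.00213) and Krtdap fell by 0.63 (limma adjusted p = 0.0115). Neither overlapped between the groups, and no other gene of that list passed. The array mean of 17 immediate early genes, which growth signals induce within minutes, given as the average deviation of each gene from its own mean, was -0.25 to -0.073 in cKO and -0.15 to 0.33 in WT. All 17 lay below 0 in cKO minus WT, 14 of them at an unadjusted limma p under 0.05 (82.4%, against 13.7% of all genes). At the adjusted threshold 0 passed. The immediate early mean was added to the fit as an alternative. It averaged -0.16 in cKO and 0.16 in WT, so that fit cannot fully separate it from genotype. The part of the bulge, leukocyte, fibroblast and differentiation genes in the results was not tested.

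None of the 33 repair genes differed between the genotypes by limma at an adjusted p under 0.05 over all genes, 0 higher and 0 lower in cKO, where 2.76% of all genes did (1.92% higher and 0.836% lower). At an unadjusted p under 0.05 there were 3, Xpc, Rev3l and Ercc8, which is 9.09% of the set against 13.7% of all genes. The cKO and WT values overlapped in all 33 tested probe sets, whereas they did not overlap in 8.24% of all genes. The median log2 difference, cKO minus WT, was 0.012 over the repair genes and 0.0027 over all genes, and 20 of 33 lay above 0. The 95% limma interval stayed within a 1.5-fold change in either direction for all 33 repair genes. It did so for 16465 of the 17097 genes tested as well, so the count does not set the repair genes apart. RMA is known to compress differences, and the number of arrays limits the precision. Among the repair genes the lowest bound was that of Polh (-0.38) and the highest that of Xpc (0.57). In the 8 fits that left out 1 array the number of repair genes whose interval stayed within that limit was 32 or 33.

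**Figure D1:**
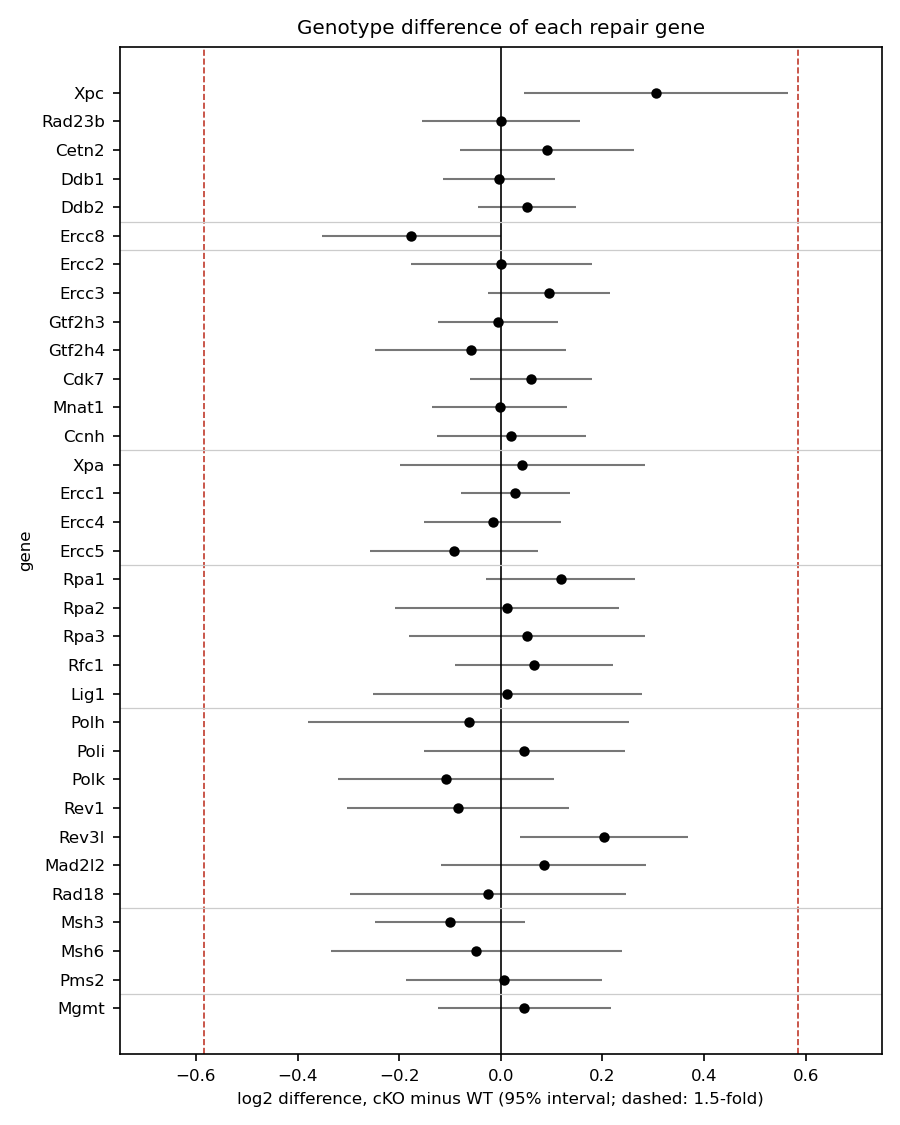
Log2 difference, cKO minus WT, of each of the 33 repair genes (points) with its 95% limma interval (lines), in the order of the pathway steps; dashed lines mark a 1.5-fold change. All intervals lie between the dashed lines, and those of Xpc, Rev3l and Ercc8 leave out 0 without correction for the number of genes.

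Of the 5 genes of damage recognition, none passed the test. Xpc, whose product finds the distorted helix across the genome, read 8.61, 8.99, 8.92 and 8.92 in cKO replicates 1 to 4 and 8.69, 8.50, 8.26 and 8.77 in WT replicates 1 to 4. Among the cKO arrays 3 lay above every WT array, while cKO replicate 1 lay below WT replicates 1 and 4, so the groups overlapped. The difference of 0.31 (SE 0.12, interval 0.046 to 0.57), or 1.24-fold, was the largest in the set and did not pass over all genes (limma adjusted p = 0.263). Leaving out WT replicate 3 gave 0.21, and adding the immediate early list mean to the fit gave 0.18 (limma adjusted p = 0.793; 0.0741 to 0.793 over all alternatives). Ddb2, the damage-binding subunit that helps XPC find ultraviolet lesions, read 9.58, 9.57, 9.54 and 9.62 in cKO and 9.56, 9.48, 9.50 and 9.57 in WT (difference 0.052, interval -0.044 to 0.15). All 8 Ddb2 values lay within a range of 0.15. Its partner Ddb1, and Rad23b and Cetn2, which stabilise XPC, had differences from -0.0039 to 0.091, and every interval held 0. XPC, DDB2 and POLH are known in human cells as genes under p53 control; a list of 16 p53 target genes had array means of -0.15 to -0.0028 in cKO and 0.0042 to 0.15 in WT, thus lower in cKO, and its part in the Xpc values was not tested.

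Transcription-coupled repair was represented by Ercc8 (CSA), a ubiquitin ligase subunit recruited to stalled RNA polymerase. Ercc8 read 6.07, 5.82, 5.81 and 5.68 in cKO and 6.04, 6.07, 6.02 and 5.96 in WT. cKO replicate 1 was the highest of all 8 arrays and the other cKO arrays were below every WT array. The difference was -0.18 (SE 0.079, interval -0.35 to -0.00058; limma adjusted p = 0.362). Its 3 probe sets did not give 1 direction: the others gave -0.028 and 0.12. Both were dim and lay below the array medians. The first read 4.29 in cKO and 4.31 in WT, and the second 4.21 in cKO and 4.09 in WT. With the mean of the 3 probe sets in place of the brightest the gene's difference was -0.028. These further probe sets, and those of Rev3l and Ddb2 named here, were picked out after their values were seen.

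TFIIH, the complex that opens the helix in repair and at promoters, was represented by 7 of its 9 listed genes, and none passed the test. Ercc3 (XPB), the translocase that pries the strands apart, read 7.98, 8.13, 8.05 and 8.13 in cKO and 7.97, 7.98, 7.96 and 7.99 in WT. The WT arrays lay close together and 3 of the cKO arrays lay above them, for a difference of 0.095 (SE 0.054, limma adjusted p = 0.508). Cdk7, the kinase of the complex, read 9.81, 9.79, 9.81 and 9.80 in cKO and 9.74, 9.69, 9.65 and 9.89 in WT (difference 0.059, limma adjusted p = 0.737). All 5 Cdk7 probe sets lay above 0 without passing over all probe sets. The helicase gene Ercc2 (XPD), the core subunits Gtf2h3 and Gtf2h4, and the kinase partners Ccnh and Mnat1 had differences from -0.059 to 0.020, with intervals between -0.25 and 0.18.

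Of the 4 genes of damage verification and incision none passed the test. Ercc1, which with ERCC4 (XPF) cuts on the 5′ side of the lesion, read 8.84, 8.91, 8.89 and 8.84 in cKO and 8.87, 8.83, 8.77 and 8.89 in WT (difference 0.029, interval -0.078 to 0.14). Ercc4 gave -0.016 (interval -0.15 to 0.12). Ercc5 (XPG), the nuclease on the other side, read 8.64, 8.48, 8.40 and 8.55 in cKO and 8.45, 8.60, 8.75 and 8.63 in WT (difference -0.093, limma adjusted p = 0.688). The Ercc5 values of the genotypes overlapped widely. Xpa, the scaffold of the incision complex, gave 0.042 (interval -0.20 to 0.28), with cKO replicate 4 the highest array at 7.42 and WT replicate 1 the lowest at 6.93.

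All 5 genes of single-strand binding, gap filling and ligation lay above 0, by 0.012 to 0.12, and none passed the test. The sign was not stable: without cKO replicate 1, without cKO replicate 2 or without WT replicate 2 Lig1 and Rpa2 lay below 0 (lowest -0.068 and -0.063), without WT replicate 1 Rpa3 lay at -0.0032, and the second Rfc1 probe set lay at -0.0065. Rpa1, the large subunit of the protein that coats single-stranded DNA, read 10.50, 10.53, 10.35 and 10.32 in cKO and 10.35, 10.21, 10.23 and 10.44 in WT (difference 0.12, SE 0.066, limma adjusted p = 0.499). Its higher values were cKO replicates 1 and 2 and WT replicate 4, so both genotypes held high and low animals. Rfc1, the large subunit of the clamp loader, read 8.89, 8.91, 8.90 and 8.77 in cKO and 8.90, 8.67, 8.70 and 8.93 in WT (difference 0.066, limma adjusted p = 0.788). The other RPA subunit genes, Rpa2 and Rpa3, and Lig1, the ligase that seals the patch and Okazaki fragments, had differences of 0.012, 0.051 and 0.013.

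Of the 7 translesion genes none passed the test. Rev3l, the catalytic subunit of polymerase zeta that extends from a base placed opposite a lesion, read 8.68, 8.80, 8.70 and 8.70 in cKO and 8.69, 8.59, 8.36 and 8.44 in WT. The groups overlapped through WT replicate 1, which lay just above the lowest cKO array, while the other WT arrays were below every cKO array. The difference was 0.20 (SE 0.074, interval 0.038 to 0.37), or 1.15-fold, with the lowest p of the set (limma adjusted p = 0.239). It was 0.33 with the immediate early list mean in the fit and 0.15 to 0.26 when 1 array was left out, without passing in any. All 3 Rev3l probe sets lay above 0, at 0.13 to 0.20, and in 1 of them, not the one tested, the groups did not overlap, with 7.71, 7.63, 7.64 and 7.74 in cKO and 7.44, 7.61, 7.62 and 7.43 in WT (limma adjusted p = 0.356 over the probe sets of the array). Mad2l2 (REV7), its non-catalytic partner, gave 0.085 (interval -0.12 to 0.29), and Rev1, the scaffold on which the bypass polymerases meet, -0.085 (interval -0.30 to 0.13). Polk, the polymerase known for bypass of bulky guanine adducts, read 8.77, 8.70, 8.40 and 8.50 in cKO and 8.67, 8.53, 8.71 and 8.88 in WT (difference -0.11, limma adjusted p = 0.725). Polh, which copies past ultraviolet dimers, gave -0.064, Poli 0.046 and Rad18 -0.025, and all of their intervals held 0.

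In mismatch repair, Msh3, whose product recognises larger loops, read 8.20, 8.09, 8.10 and 8.31 in cKO and 8.17, 8.35, 8.31 and 8.27 in WT (difference -0.10, limma adjusted p = 0.591). Msh6, whose product recognises single mispairs, read 8.66, 8.48, 8.15 and 8.15 in cKO and 8.48, 8.13, 8.45 and 8.57 in WT (difference -0.048, interval -0.33 to 0.24). Msh6 was high and low in animals of both genotypes. Pms2, of the endonuclease that nicks the new strand, gave 0.0054 (interval -0.19 to 0.20). Mgmt read 8.30, 8.38, 8.30 and 8.25 in cKO and 8.27, 8.10, 8.21 and 8.47 in WT (difference 0.046, limma adjusted p = 0.897), and its WT values spanned those of cKO on both sides.

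**Figure D2:**
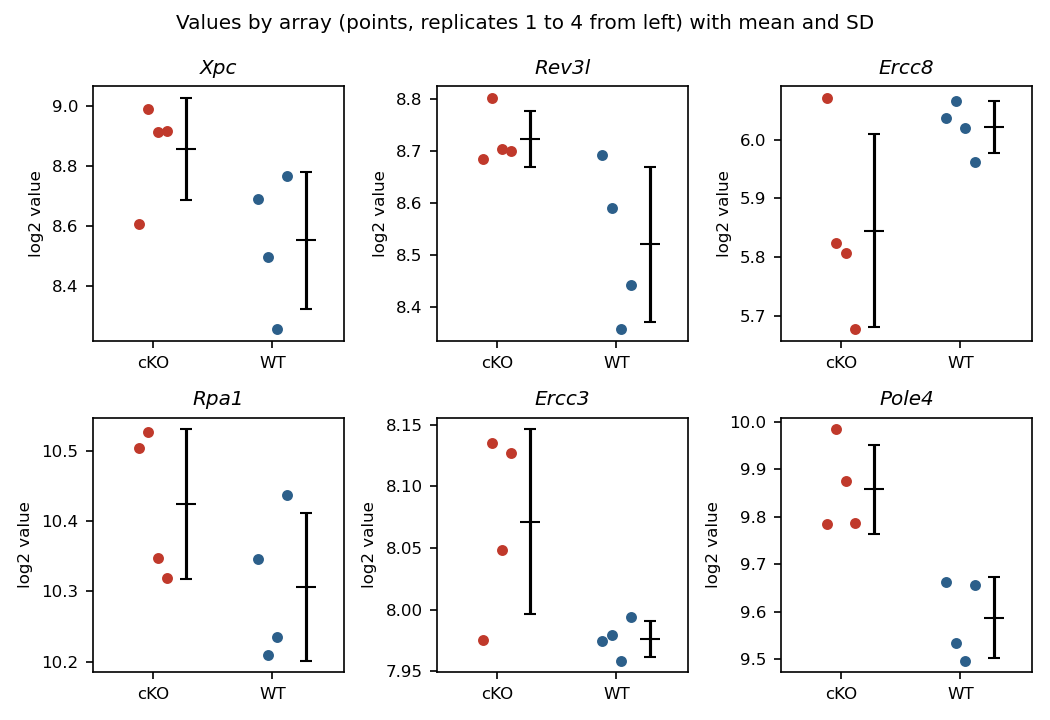
Log2 values of 6 genes in the 8 arrays (points; replicates 1 to 4 from left to right within each genotype) with mean and SD (bars, n = 4). The cKO and WT points overlap in Xpc, Rev3l, Ercc8, Rpa1 and Ercc3 and not in Pole4, a polymerase subunit gene outside the set.

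Where 1 gene had several probe sets they were compared. Of 20 such genes, all probe sets lay above 0 in 9, all lay below 0 in 3, and both signs occurred in 8. Of the 70 probe sets none passed over all probe sets by limma. With every probe set fitted on its own, 323 were higher and 139 lower in cKO. An unadjusted p under 0.05 was found in 5: those of Xpc, Ercc8 (the dim one at 0.12), Rev3l (2 of 3) and Ddb2 (its dimmer one, 0.14). In 1 of the 70 the groups did not overlap, the Rev3l probe set given above. Counted by gene, 13.7% of all genes had an unadjusted p under 0.05 by limma and 8.24% did not overlap. The shares over all probe sets are not given here.

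Several repair genes were high together in cKO replicates 1 and 2 and WT replicate 4 and low together in cKO replicates 3 and 4 and WT replicate 2, as was a list of proliferation genes. That list held 31 measured genes of mitosis and DNA replication and none of the repair genes. Its array means were 0.39, 0.15, -0.34 and -0.27 in cKO and -0.17, -0.30, 0.070 and 0.47 in WT. The genotypes had like averages of it, -0.016 ± 0.35 in cKO and 0.016 ± 0.34 in WT (SD, n = 4), so the variation was between animals of both groups. In bulk cells, fewer dividing cells and less RNA per dividing cell cannot be told apart. With 1 array per animal, differences among animals, cell preparations and arrays cannot be told apart either.

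**Figure D3:**
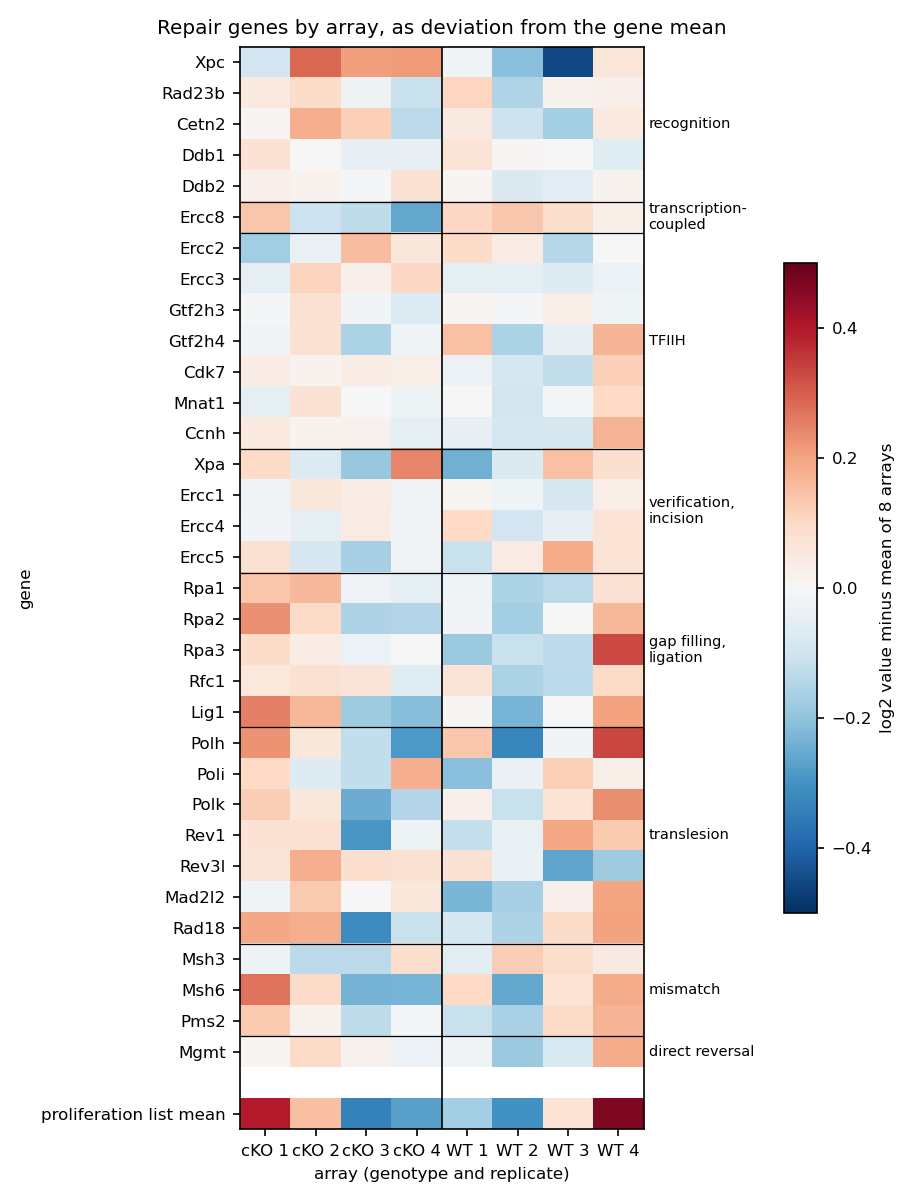
Deviation of each repair gene from its own mean over the 8 arrays (colour, log2), genes in pathway order, with the mean of the proliferation list in the bottom row. Lig1, Rpa2, Polh, Polk, Rad18 and Msh6 are red in cKO replicate 1 and WT replicate 4 and blue in cKO replicates 3 and 4 and WT replicate 2, as is the bottom row.

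Each of the 17097 genes was therefore fitted by limma with genotype and the list mean together, a fit added after the data were seen. The slope is the log2 change of a gene for a log2 change of 1 in the list mean at a given genotype. At an adjusted p under 0.05 over all genes, 6 of 33 repair genes rose with the list and 0 fell, or 18.2% of the set against 2.81% of all genes that rose and 0.222% that fell; at an unadjusted p under 0.05 there were 11 of 33 in either direction, or 33.3% against 14.3% of all genes, of which Ercc2 fell (slope -0.25, limma adjusted p = 0.328) and the others rose. The 6 were Lig1, Rpa2, Polk, Rad18, Msh6 and Polh. Of the 33 slopes 28 lay above 0, against 60.3% of all genes, and the median slope was 0.16 against 0.031. Of the 13 bulge markers 2 had slopes above 0, and 0 passed in either direction. The part of cell content in the slopes was not tested.

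Lig1 read 9.79, 9.71, 9.37 and 9.33 in cKO and 9.55, 9.31, 9.54 and 9.74 in WT, a 1.40-fold range over the animals. Its slope was 0.57 (SE 0.090, limma adjusted p = 0.00740), with 0.66 over the cKO arrays alone and 0.48 over the WT arrays alone. The gene was thus high and low in the same animals as the proliferation list in both genotypes. Rpa2 read 8.92, 8.79, 8.53 and 8.54 in cKO and 8.67, 8.52, 8.69 and 8.85 in WT, with a slope of 0.46 (SE 0.080, limma adjusted p = 0.0123). For Msh6, whose values are given above, the slope was 0.58 (SE 0.12, limma adjusted p = 0.0289). Lig1 and Rpa2 serve ordinary replication as well as repair, and Msh6 acts in mismatch repair behind the fork. The part of these roles in the slopes was not tested.

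The other 3 were of damage bypass. Polk had a slope of 0.45 (SE 0.078, limma adjusted p = 0.0134). Rad18 read 6.75, 6.74, 6.24 and 6.45 in cKO and 6.47, 6.40, 6.65 and 6.76 in WT, with a slope of 0.57 (SE 0.11, limma adjusted p = 0.0192). Polh read 8.96, 8.79, 8.61 and 8.45 in cKO and 8.87, 8.41, 8.71 and 9.06 in WT, a 1.58-fold range, with a slope of 0.62 (SE 0.14, limma adjusted p = 0.0449). With the mean of its 3 probe sets the Polh slope was 0.38 and did not pass (limma adjusted p = 0.116, alternatives from 0.00673 to 0.191). In each of the 6 genes the slope was above 0 in the cKO and in the WT arrays taken alone, from 0.38 (Rpa2 in WT) to 0.72 (Msh6 in cKO). The 6 genes were chosen by a slope fitted to these same arrays, so slopes above 0 in both genotypes are no separate support.

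**Figure D4:**
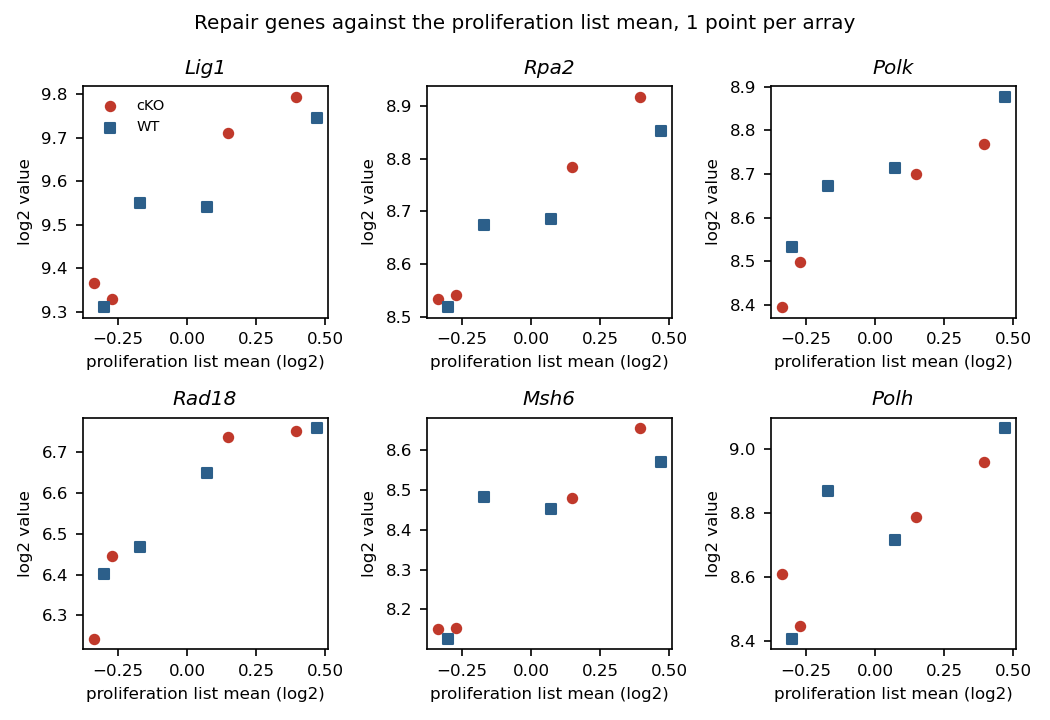
Log2 value of the 6 repair genes that rose with the proliferation list (vertical) against the mean of that list (horizontal, log2), 1 point per array, cKO as circles and WT as squares. In each panel the slope over the arrays of each genotype is above 0, though neighbouring points do not always rise, as in Polh. Whether the slopes differ between genotypes was not tested.

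The number of calls depended on single animals. Without cKO replicate 1, without cKO replicate 3 or without WT replicate 2 the number of repair genes past the threshold was 1, that of Lig1, while it was 4 to 6 without any other array. Lig1 passed in all 8 fits without 1 array, Rpa2, Polk and Rad18 in 5, Msh6 in 2 and Polh in 1. The slopes themselves moved less, from 0.53 to 0.64 for Lig1 and from 0.51 to 0.72 for Msh6 over those fits. With only the replication genes of the list 5 repair genes passed, and with only its other, mostly mitotic genes 6.

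Among the remaining repair genes, the highest slopes were those of other genes of gap filling, mismatch repair and bypass. They were 0.38 for Rpa3, 0.36 for Pms2, 0.35 for Rev1, 0.26 for Mad2l2 and 0.25 for Rpa1. None passed the threshold (lowest limma adjusted p = 0.0865, Pms2). The same roles also held lower slopes, 0.15 for Rfc1, 0.13 for Poli and -0.022 for Msh3. Among genes of recognition and incision the slope was -0.058 for Xpc, 0.16 for Rad23b, 0.094 for Cetn2, 0.035 for Ddb2, 0.019 for Ddb1, 0.013 for Ercc1, 0.024 for Ercc4, 0.17 for Ercc5 and 0.20 for Xpa. The TFIIH genes had slopes from -0.25 (Ercc2) to 0.22 (Gtf2h4), Ercc8 had 0.14 and Mgmt 0.23. The slopes of the roles thus overlapped, and whether the roles differ in slope was not tested. By role, 2 of 5 genes of gap filling and ligation, 3 of 7 of translesion synthesis and 1 of 3 of mismatch repair passed, and 0 of the 18 others. Rev3l had a slope of -0.13 (interval -0.39 to 0.14), the only one of the 7 bypass genes below 0. Within the genotypes the slopes had opposite signs for Rev3l (0.025 in cKO and -0.29 in WT) and for Xpc (-0.31 in cKO and 0.21 in WT). These were not alone in this. The signs were also opposite for Ercc8 (0.40 in cKO and -0.13 in WT) and Ddb1 (0.15 in cKO and -0.12 in WT). The same held for Ddb2, Ercc3, Gtf2h3, Cdk7, Mnat1, Ercc1 and Ercc4. With the list mean in the fit the genotype comparison again called 0 of the 33 genes.

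Promoter sequences were taken from RefSeq (build GRCm38.p6) for the genes that rose with the list, since they moved together. A window was found for 27 of the 33 measured genes; for Xpc, Ddb2, Ercc3, Ccnh, Poli and Rev3l none is given. The 250 bases before the start were searched on both strands for TTTCCCGC or TTTGGCGC (E2F), GCGTG (the core bound by the AHR, the receptor that DMBA activates), CCAAT (NF-Y) and GGGCGG (SP and KLF factors). The windows of Rpa2, Msh6, Polh and Lig1 (1 of its 3) are shown, and those of Polk and Rad18 are not, since of their 2 windows each only 1, of Polk, held a match (GGGCGG), 5′ to 3′ on the gene's strand, with all matches, on either strand, in capitals.
Rpa2, chr4:132768110-132768359, plus strand: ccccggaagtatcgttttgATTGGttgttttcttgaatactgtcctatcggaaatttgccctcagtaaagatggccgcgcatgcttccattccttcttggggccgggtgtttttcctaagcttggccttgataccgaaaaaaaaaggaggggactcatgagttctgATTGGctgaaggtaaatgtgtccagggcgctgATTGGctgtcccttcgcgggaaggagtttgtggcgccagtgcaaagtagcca
Msh6, chr17:87974800-87975049, plus strand: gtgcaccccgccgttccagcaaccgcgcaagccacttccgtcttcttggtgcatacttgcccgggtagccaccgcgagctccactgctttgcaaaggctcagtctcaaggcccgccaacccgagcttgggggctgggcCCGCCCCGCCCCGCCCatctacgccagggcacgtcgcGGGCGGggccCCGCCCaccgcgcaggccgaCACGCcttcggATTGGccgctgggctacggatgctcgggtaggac
Polh, chr17:46202642-46202891, minus strand: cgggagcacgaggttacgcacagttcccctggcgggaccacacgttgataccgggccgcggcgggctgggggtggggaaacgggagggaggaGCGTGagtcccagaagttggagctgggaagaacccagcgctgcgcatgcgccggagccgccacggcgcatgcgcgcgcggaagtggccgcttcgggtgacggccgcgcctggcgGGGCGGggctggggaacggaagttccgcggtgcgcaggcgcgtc
Lig1, chr7:13276925-13277174, plus strand: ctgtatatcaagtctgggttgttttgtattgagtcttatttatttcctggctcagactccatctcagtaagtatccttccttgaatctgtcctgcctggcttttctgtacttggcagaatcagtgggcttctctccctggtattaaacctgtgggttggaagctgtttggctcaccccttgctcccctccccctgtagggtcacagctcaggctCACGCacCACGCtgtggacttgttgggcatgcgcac
Rpa2 holds 3 CCAAT matches, all reversed, and Msh6 holds 5 GGGCGG matches, 1 CCAAT and 1 GCGTG with 2 overlaps among adjoining GGGCGG matches. Polh holds 1 GCGTG and 1 GGGCGG, and this Lig1 window holds 2 GCGTG. The E2F letters were in the windows of 0 of the 6 genes that rose with the list and 1 of the 27 repair genes with a window (Msh3), against 2.25% of 13605 tested genes with a window and 8.64% of the 382 such genes that rose with the list. GCGTG was found in 14 of 27 repair genes (51.9%) and in 42.3% of all genes, CCAAT in 15 (55.6%) and 39.6%, and GGGCGG in 19 (70.4%) and 53.5%. Of the 6 genes that rose with the list, 3 held GCGTG, 2 CCAAT and 4 GGGCGG, against 11, 13 and 15 of the 21 other repair genes. Among the 382 genes that rose with the list the shares were 48.4%, 52.4% and 65.7%. Such matches describe letters only.

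The other genes of these pathways, 49 measured of 58 listed, were compared in the same way. By genotype 1 of the 49 rose, where 1.92% of all genes did, and 0 fell; it was Pole4, a small subunit of polymerase epsilon. Pole4 read 9.79, 9.98, 9.87 and 9.79 in cKO and 9.66, 9.53, 9.50 and 9.66 in WT, without overlap (1.21-fold; difference 0.27, SE 0.061, limma adjusted p = 0.0443). It passed in 2 of the 8 fits without 1 array, those without cKO replicate 1 and without WT replicate 4, where its difference was 0.29 in both; without any 1 of the other 6 arrays it did not (highest adjusted p 0.145, without cKO replicate 2). Nor did it pass without trend, with arrays shifted to a common median or with the immediate early list mean in the fit (limma adjusted p = 0.0520, 0.0684 and 0.353). Its second probe set lay 1.37-fold higher (limma adjusted p = 0.0455 over the probe sets of the array). The lowest p elsewhere was that of Mlh3, a mismatch repair gene, at 7.72 ± 0.11 in cKO and 7.36 ± 0.21 in WT (SD, n = 4; limma adjusted p = 0.111). Nthl1 in base excision repair (0.18), Wdr48 in translesion synthesis (0.073) and Alkbh2 in direct reversal (0.056) had the lowest p of their lists and did not pass.

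The proliferation list itself held 12 genes of DNA replication. With it 11 of the 49 rose (22.4%) and 0 fell, against 2.81% and 0.222% of all genes. They included the leading-strand polymerase gene Pole (slope 1.16), the uracil glycosylase gene Ung (1.00), the glycosylase gene Neil3 (0.90), the exonuclease gene Exo1 (0.84), the flap nuclease gene Fen1 (0.71), Pcna (0.45), and the clamp loader genes Rfc2, Rfc4 and Rfc5 (0.33 to 0.65). Pole2 (0.45) and Pold2 (0.44) were the others. Pole4, called by genotype in some of the fits only, had a slope of 0.047 that did not pass (limma adjusted p = 0.908). Pole, of the same holoenzyme, differed by -0.048 between the genotypes.

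**Figure D5:**
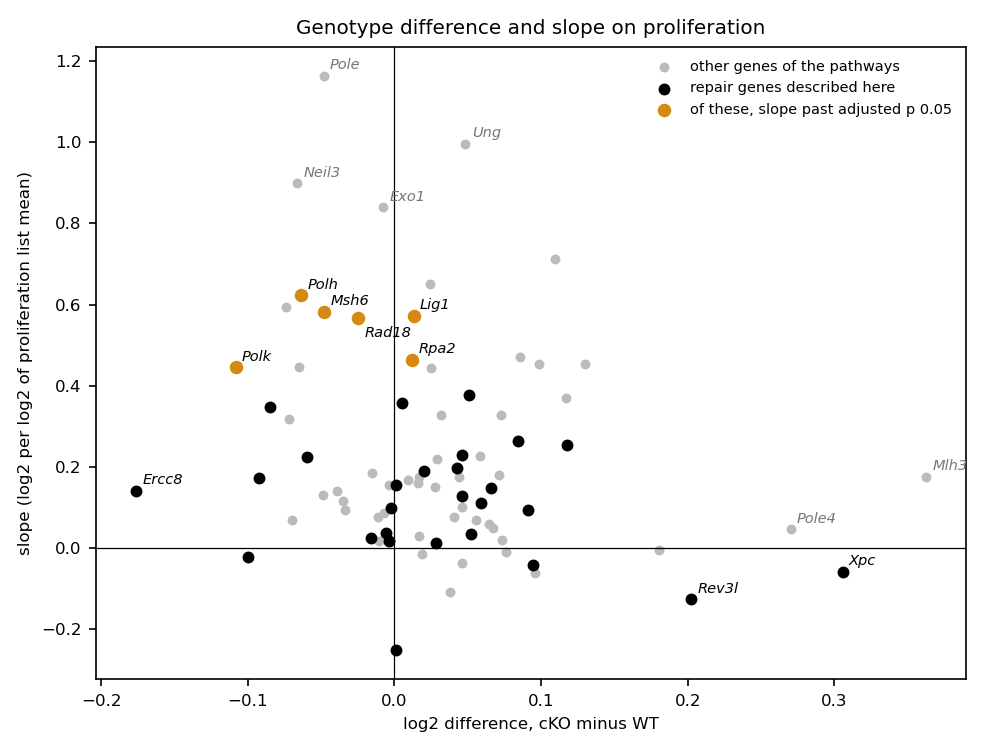
Log2 difference between genotypes (horizontal) and slope on the proliferation list mean (vertical) of the 33 repair genes (black, or orange where the slope passed an adjusted p of 0.05) and of 49 other genes of the pathways (grey). The 6 orange genes lie between -0.11 and 0.013 horizontally, and Xpc and Rev3l, farthest to the right among the repair genes, have slopes below 0.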

How the data were processed

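Biotinylated cDNA, amplified from 25 ng of total RNA with 17 cycles, was hybridised to Affymetrix arrays, per the labels' protocols. The deposited values are log2 expression per probe set, made by the authors with RMA per the submitters' processing notes; no source used here states its version or settings. No further normalization was applied, and 0 array columns belonged to other samples. Gene symbols came from GEO's annotation of the platform, in which 28898 probe sets carried 1 gene symbol, 551 several and 15692 none here. A gene's value is that of its brightest probe set, by the average of all 8 arrays. Genotypes were compared by a two-sided limma test (version 3.58.1, R 4.3.3; lmFit, then trended eBayes) with Benjamini-Hochberg adjustment over 17097 genes and a threshold of 0.05. Errors are SD over arrays or the standard error of the fit. As far as the titles say, each array is a separate animal, and p-values then rest on the variation among animals. The scripts were tested on simulated data. Alternatives were other normalizations, summaries and filters, eBayes without trend, array weights, a replicate block, list means as covariates, other thresholds and leaving out each array. Replicate numbers do not pair the animals: the deviations of same-numbered cKO and WT arrays correlated at -0.53 to 0.028. The genes and lists were chosen with earlier results of these data known. All 36 genes are named; values by array are given for the 2 with the lowest p of each role (1 in the smallest roles) and for those that rose with the proliferation list, and other pathway genes are named where they passed or had the lowest p of their list. Plots were made in matplotlib 3.10.9 (Python 3.11.15).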

Additional observations from a re-analysis of the deposited data

Results flagged for a closer look

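Among 72 groups of 4 values examined, of the repair genes and of the proliferation, p53 and immediate early list means, 2 held an array far from the other 3, where chance gives about 1 in 20. Rpa3 read 7.87 in WT replicate 4 and 7.35 to 7.43 in the other WT arrays, and the gap made up 0.852 of the whole range. Rfc1 read 8.77 in cKO replicate 4 and 8.89 to 8.91 in the other cKO arrays, with a share of 0.851.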

How the results depend on the processing

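The count of repair genes called by genotype was 0 in each direction under every alternative run, and over 561 gene values in 17 alternatives the lowest limma adjusted p was 0.0666 (Ercc8) and the largest change 0.40 (Xpc, 0.18 to 0.40). The sign turned in 71 of these values, in 21 genes, and 12 values moved by more than the spread between animals, 10 of them with the immediate early covariate. Other pathway genes that rose, 1 in the report, were 0 with arrays shifted to a common median, without trend, with the replicate block, with the immediate early covariate or at an adjusted p under 0.01, 2 with array weights, and 0 to 2 without 1 array. All genes were 329 higher and 143 lower; 249 were lower with array weights and 230 with the proliferation covariate, 191 were higher and 77 lower with the replicate block, 61 and 28 with the immediate early covariate, 497 and 247 at an adjusted p under 0.1, and 159 and 44 under 0.01. Without 1 array they were 190 to 502 higher and 67 to 294 lower. Repair genes that rose with the proliferation list, 6 in the report, were 0 with the replicate block (Lig1 slope 0.57, limma adjusted p = 0.0579), 1 at an adjusted p under 0.01, 1 to 6 without 1 array, and 4 to 8 in the other alternatives. The cause of these changes was not tested. The 8 arrays limit the precision throughout.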
